A study of Mus musculus with 21 samples.

Results

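The unfolded protein response and the integrated stress response were examined through 10 genes in bulk RNA of GA-Camk2a mice. The genes were taken by symbol from the count table: Atf3, Atf4, Atf5, Ddit3, Trib3, Asns, Sesn2, Xbp1, Hspa5 and Hsp90b1. All 10 were found, each under 1 Ensembl identifier, among 64361 genes. RNA was measured with prime-seq, in which oligo(dT) primers carrying a barcode start the reverse transcription and the barcoded samples are pooled early. GA-Camk2a mice carry a GFP-tagged poly-GA transgene, the glycine-alanine repeat protein made from the C9orf72 repeat expansion of amyotrophic lateral sclerosis, and Camk2a-Cre switches it on in excitatory neurons. The labels name the control mice only as ctrl. The study calls the controls of its stained sections Camk2a, and whether the sequenced controls carry Cre is not stated for them in the labels. The line was kept on a C57BL/6J background. By the study's methods, the GA-Camk2a mice came from a small number of litters. Mice were 30 to 40 weeks old, the age at which the transgenic mice reached their humane endpoint, and no treatment is given for any group. There were 11 cortex libraries (5 of control and 6 of GA-Camk2a mice) and 10 hippocampus libraries (4 and 6) from 11 mice, of which 10 gave both tissues. The labels also give a batch, 1 or 2, without saying of what. Batch 1 held 3 control and 4 GA-Camk2a cortex libraries and 2 and 3 hippocampus libraries, and batch 2 held 2 and 2 cortex and 2 and 3 hippocampus libraries. The group sizes follow the labels, and the study's figure legend gives the numbers of control mice for cortex and hippocampus the other way round.

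When unfolded proteins build up in the endoplasmic reticulum (ER), its sensors respond: IRE1, which splices the Xbp1 mRNA, ATF6, which is cleaved into a transcription factor, and PERK, which phosphorylates eIF2alpha. Amino acid shortage, heme deficiency and double-stranded RNA reach eIF2alpha through other kinases, and this shared route is the integrated stress response. Phosphorylated eIF2alpha lowers general protein synthesis while favouring translation of Atf4 and Atf5 mRNA, so the amount of these mRNAs does not report the amount of protein. Likewise, a count per gene does not separate spliced from unspliced Xbp1. In neurons, prolonged signalling through Ddit3 is linked to cell death, and the ER chaperones are a standard readout of the ATF6 and XBP1 branches.

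Libraries held between 1048201 and 5888102 counts. The GFP row of the transgene held 0 to 4 counts per library and did not separate the genotypes: 5 of 6 GA-Camk2a cortex libraries had at least 1 count, as had 2 of 5 control cortex libraries. The 5 hippocampus markers fitted the labels. Their sum was 563 to 775 CPM (counts scaled to a library total of 1000000) in hippocampus and 91.7 to 154 CPM in cortex libraries. The 4 cortex markers did not separate the tissues, with sums of 165 to 5370 CPM in hippocampus and 223 to 690 CPM in cortex. In hippocampus against cortex, 1 of them was higher and 2 were lower in control mice. In GA-Camk2a mice 2 were higher and 2 were lower. Other marker lists were uneven between libraries or groups. The 4 choroid plexus markers summed to 1807 to 55499 CPM in hippocampus libraries and to 8182 CPM in the GA-Camk2a cortex library of mouse 34, against 1585 to 2721 CPM in the other cortex libraries. Rorb, from the cortex markers, exceeded 1000 CPM in 3 hippocampus libraries, at 1455 in control mouse 11 and 5303 and 4414 in GA-Camk2a mice 16 and 30. These levels were above those of cortex itself. Cortex libraries held 133 to 214 CPM, except that of GA-Camk2a mouse 41 with 612 CPM. The source of the high Rorb was not tested. The 5 striatum markers summed to 300 to 420 CPM in control cortex and 104 to 173 CPM in GA-Camk2a cortex, and all 5 passed the threshold as lower there. Whether dissection or genotype set this difference was not tested.

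The sequences in front of these genes were searched for short motifs, among them elements that ATF4 and ATF6 are known to bind. Promoter windows of 300 bases, from 250 bases before to 50 bases after the start site, were available for all 10 genes from RefSeq on build GRCm38.p6. The motifs searched on both strands were TGATGNAA, the core of the C/EBP-ATF response element (CARE), the ER stress element (ERSE: CCAAT, 9 bases of any kind, CCACG), TGACGTGG, a core of the unfolded protein response element, and TGACGTCA, the cAMP response element. The last 2 share their first bases, TGACGT, and the end of the ERSE, CCACG, is also the start of TGACGTGG read on the other strand. TGATGNAA was present in the windows of Atf3, Trib3 and Asns and in 3.97% of all 32851 windows. The ERSE was present in Hspa5, once, and in Hsp90b1, at 2 places, and in 0.119% of all windows. TGACGTGG and TGACGTCA, found in 0.676% and 1.79% of all windows, matched none of the 10 genes. Shown are the windows of the genes that the comparisons turn on, with the motif matches in capitals. The Ddit3 window, without an exact match, is that of the gene that rose in cortex, and the Hspa5 and Hsp90b1 windows carry the ERSE. Only exact matches were sought, so a window without one may still hold a variant of a motif. Sites outside the window were not searched, so a missing match does not show that a gene lacks the element.

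Ddit3, chr10:127290543-127290842, plus strand: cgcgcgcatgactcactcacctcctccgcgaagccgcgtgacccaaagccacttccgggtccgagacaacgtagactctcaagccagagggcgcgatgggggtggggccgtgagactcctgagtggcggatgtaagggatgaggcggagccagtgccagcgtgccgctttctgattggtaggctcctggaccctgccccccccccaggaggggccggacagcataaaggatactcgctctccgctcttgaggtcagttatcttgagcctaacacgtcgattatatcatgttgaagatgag
Atf3, chr1:191183284-191183583, minus strand: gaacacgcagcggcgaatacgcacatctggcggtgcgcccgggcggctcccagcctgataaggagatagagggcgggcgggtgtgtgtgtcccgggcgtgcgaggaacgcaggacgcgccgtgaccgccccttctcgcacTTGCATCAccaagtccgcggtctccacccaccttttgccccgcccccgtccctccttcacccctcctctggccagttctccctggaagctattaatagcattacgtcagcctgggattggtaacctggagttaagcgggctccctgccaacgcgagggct
Asns, chr6:7693160-7693459, minus strand: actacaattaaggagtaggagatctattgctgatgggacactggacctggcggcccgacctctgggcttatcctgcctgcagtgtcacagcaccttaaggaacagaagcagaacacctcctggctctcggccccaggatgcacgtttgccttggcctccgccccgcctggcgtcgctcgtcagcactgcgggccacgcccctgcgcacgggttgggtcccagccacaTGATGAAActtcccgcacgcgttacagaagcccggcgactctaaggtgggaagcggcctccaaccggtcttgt
Hspa5, chr2:34771840-34772139, plus strand: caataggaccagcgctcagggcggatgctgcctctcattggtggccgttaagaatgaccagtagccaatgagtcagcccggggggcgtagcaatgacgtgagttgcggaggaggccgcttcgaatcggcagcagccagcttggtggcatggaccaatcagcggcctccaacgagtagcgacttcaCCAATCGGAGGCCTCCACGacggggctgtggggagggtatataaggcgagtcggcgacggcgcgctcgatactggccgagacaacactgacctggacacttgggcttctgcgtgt
Hsp90b1, chr10:86705395-86705694, minus strand: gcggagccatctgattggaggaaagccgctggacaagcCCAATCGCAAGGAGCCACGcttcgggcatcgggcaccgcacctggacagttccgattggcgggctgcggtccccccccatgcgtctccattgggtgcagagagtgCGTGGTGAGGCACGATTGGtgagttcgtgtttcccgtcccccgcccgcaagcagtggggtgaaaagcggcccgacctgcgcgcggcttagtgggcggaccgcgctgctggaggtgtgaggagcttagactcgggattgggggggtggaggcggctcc

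Counted from the start site, with negative positions before it, the matches lie at -110 to -103 in Atf3, on the other strand, at -23 to -16 in Asns, and at -65 to -47 in Hspa5. In Hsp90b1 they lie at -212 to -194 and, on the other strand, at -107 to -89. These letters describe the windows and were not tested for binding.

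Genotypes were compared within each tissue with edgeR's quasi-likelihood test, and p-values were adjusted over all genes tested with a threshold of 0.05. Of the 10 genes, 8 had enough counts to be tested in cortex: Ddit3 was higher in GA-Camk2a mice, Hsp90b1 was lower, and 6 did not pass. The background is large, since 12.5% of all 13058 genes tested in cortex passed. In hippocampus 8 genes were tested and 0 passed, where 10.9% of 14884 genes did. At an unadjusted p under 0.05 there were 2 of the 8 in hippocampus, Ddit3 and Asns, and 2 of the 8 in cortex, where 24.7% and 25.9% of all genes tested lay under it, so that these shares of members were near the background. DESeq2 without a batch term gave 0 in hippocampus and the same 2 genes in cortex. In these bulk samples, fewer cells of a type and less RNA per cell cannot be told apart. Atf3 and Trib3 fell below the count filter in both tissues.

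**Figure D1:**
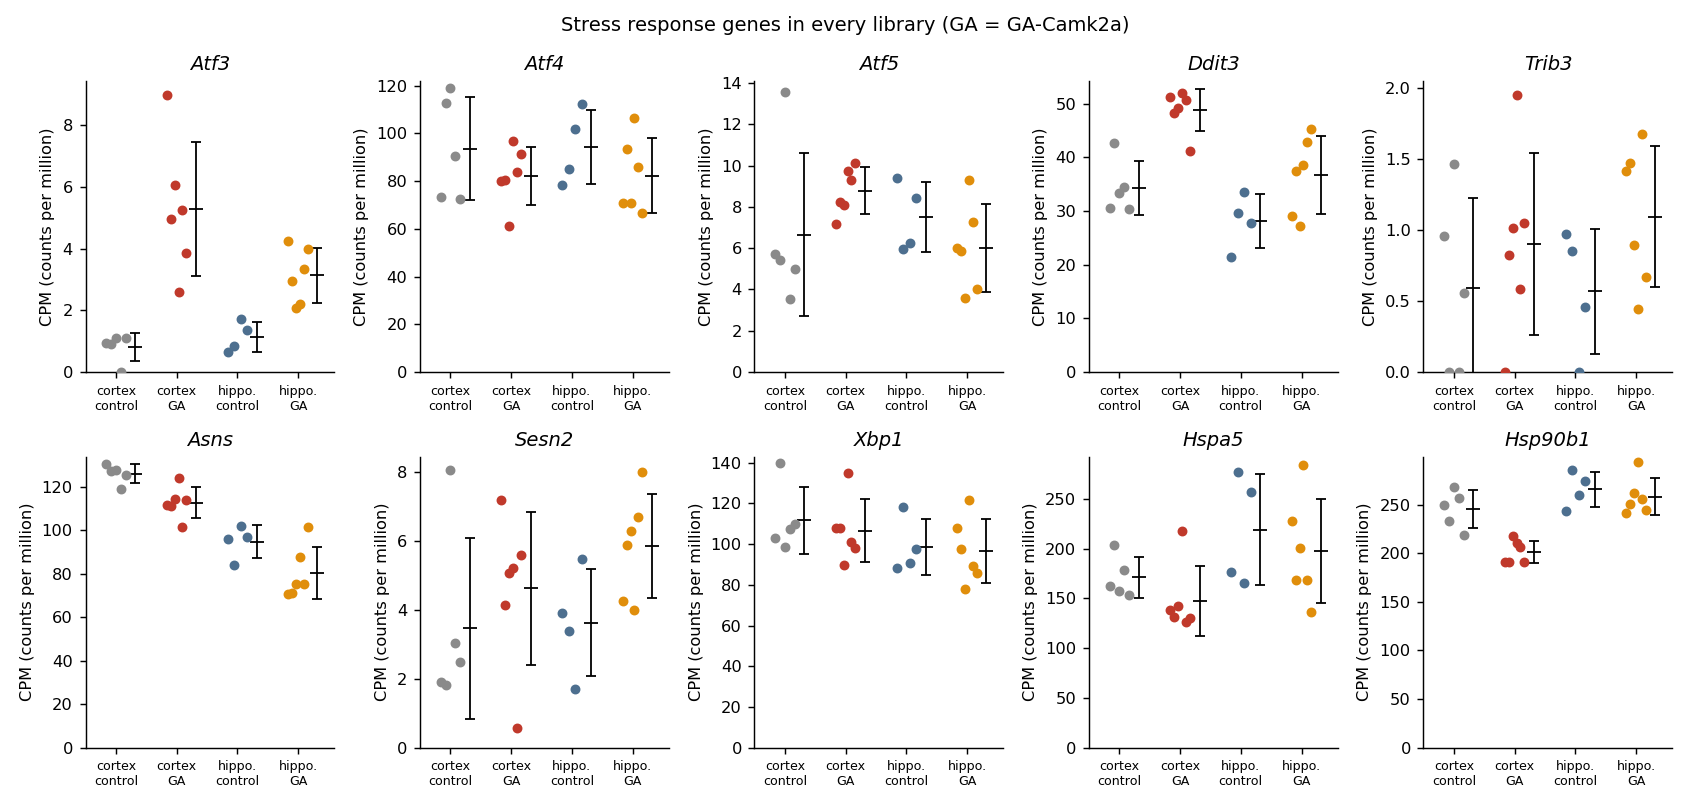
CPM of the 10 genes in every library, 1 point per library and 1 panel per gene, with the mean and SD of each group as bars (cut at 0 where they reach below it). Ddit3 and Atf3 sit higher in GA-Camk2a cortex than in control cortex, Hsp90b1 sits lower there, and Asns is lower in both hippocampus groups than in cortex controls.

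Ddit3 encodes CHOP, the transcription factor that links sustained ER stress to cell death. In control cortex it was measured at 30.5, 42.7, 33.3, 34.4 and 30.5 CPM in mice 11, 20, 31, 37 and 38. In GA-Camk2a cortex the lowest library had 41.3, the median was 49.9 and the highest 52.0 CPM. Of the 6 GA-Camk2a libraries, 5 were above every control, and only the library of mouse 41 fell below the highest control, mouse 20. The log2 fold change was 0.55 (SE 0.11, 95% interval 0.31 to 0.78, edgeR adjusted p = 0.00232, n = 5 and 6), which is 46.0% more. Within batch 1 it was 0.60 (adjusted p = 0.0194) and within batch 2, with 2 libraries per genotype, 0.43 (adjusted p = 0.384).

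In hippocampus, Ddit3 was measured at 21.4, 29.6, 33.6 and 27.8 CPM in control mice 11, 20, 31 and 37, and at 27.2 CPM in the lowest, 38.03 in the median and 45.4 in the highest of the 6 GA-Camk2a libraries. The groups overlapped, although 4 of 6 values in GA-Camk2a mice exceeded the highest control. The log2 fold change of 0.34 (SE 0.13, 95% interval 0.07 to 0.61) did not pass (edgeR adjusted p = 0.108). It was 0.30 within batch 1 and 0.37 within batch 2, but 0.0076 (adjusted p = 0.989) when all libraries were thinned to the counts of the smallest. The thinning was 1 random draw, so an effect of depth and the sampling noise of that draw were not separated. The order of the group means was GA-Camk2a cortex (48.8 ± 3.91 CPM, SD, n = 6), GA-Camk2a hippocampus (36.8 ± 7.30, n = 6), control cortex (34.3 ± 5.00, n = 5) and control hippocampus (28.1 ± 5.07, n = 4), and the middle groups differed by less than their spread. The 3′ end of Ddit3 overlaps the 3′ end of Mars on the other strand by 68 bases, and whether the counting used strand is not given. The annotation also holds a second Ddit3 gene on the same strand over 2925 bases, which is not among the rows of the count table, so the counts of Ddit3 carry some uncertainty. Mars itself lay between 18.9 and 31.5 CPM in all 4 groups, and its range in GA-Camk2a cortex, 18.9 to 27.9 CPM, was not above that in control cortex, 21.0 to 31.5 CPM.

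Cell type markers moved with genotype in the same libraries. In cortex 5 of 8 microglia markers and 4 of 7 astrocyte markers were higher in GA-Camk2a mice and 4 of 6 excitatory neuron markers were lower. The summed microglia level was 149 to 176 CPM in control and 252 to 404 CPM in GA-Camk2a cortex, the astrocyte level 1550 to 2320 and 2283 to 3718 CPM, and the excitatory neuron level 926 to 1379 and 718 to 901 CPM. In hippocampus 5 of 8 microglia and 5 of 7 astrocyte markers were higher, and 5 of 6 excitatory neuron markers were lower. The microglia level there was 160 to 186 CPM in controls and 242 to 372 CPM in GA-Camk2a mice, and the excitatory neuron level 1423 to 1789 and 714 to 945 CPM. No marker of these lists was at 0 throughout a group. Their part in the difference of Ddit3, of any other member or of the other pathway genes, among these the amino acid genes, was not tested.

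Atf3, an early stress-induced transcription factor that acts downstream of ATF4 and is also induced by axon injury, had too few counts for the filter. Control cortex libraries held 1, 1, 3, 0 and 4 counts of it (mice 11, 20, 31, 37 and 38), which is 0.954, 0.908, 1.10, 0 and 1.11 CPM. GA-Camk2a cortex libraries held 4 to 12 counts, with 2.60 CPM in the lowest, 5.10 in the median and 8.99 in the highest. All 6 GA-Camk2a libraries were above all 5 controls. When no filter was used the log2 fold change was 2.47 (SE 0.46, edgeR adjusted p = 1.32e-05), in a fit in which 2.75% of 54592 genes passed, and it ranged from 2.09 to 2.75 with each library left out in turn, with adjusted p at most 0.00155.

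In hippocampus, Atf3 was at 0.650, 0.849, 1.71 and 1.37 CPM in control mice 11, 20, 31 and 37, and at 2.09, 3.14 and 4.25 CPM in the lowest, the median and the highest of the GA-Camk2a libraries, again with no overlap. Without the filter the log2 fold change was 1.38 (SE 0.45, edgeR adjusted p = 0.0689), where 3.12% of 59346 genes passed. It passed when the library of GA-Camk2a mouse 30 (adjusted p = 0.0469) or of GA-Camk2a mouse 34 (adjusted p = 0.0454) was left out, and the adjusted p reached 0.39 without control mouse 20. Among the genes that passed the filter, which Atf3 did not, the groups did not overlap for 6.17% in cortex and 9.62% in hippocampus. The share among genes with counts as low as those of Atf3 was not taken. Levels this low carry a large counting error.

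Atf4, the translationally controlled activator of the response, was not past the threshold in either tissue. Control cortex held 73.5, 113, 119, 90.6 and 72.6 CPM (mice 11, 20, 31, 37 and 38) and GA-Camk2a cortex 61.3 CPM in the lowest, 82.2 in the median and 96.8 in the highest library. Control hippocampus held 78.3, 85.1, 102 and 112 CPM (mice 11, 20, 31 and 37) and GA-Camk2a hippocampus 66.7, 78.4 and 106 CPM. The groups overlapped in both tissues. Atf4 had a log2 fold change of -0.16 (95% interval -0.44 to 0.12, edgeR adjusted p = 0.49) in cortex and -0.24 (-0.54 to 0.05, adjusted p = 0.303) in hippocampus.

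Atf5, a related factor induced when eIF2alpha is phosphorylated, stood on few counts, 6 to 37 per library. Control cortex held 5.72, 5.45, 13.6, 3.54 and 4.99 CPM (mice 11, 20, 31, 37 and 38) and GA-Camk2a cortex 7.19, 8.79 and 10.1 CPM in the lowest, the median and the highest library. Only control mouse 31 lay above the GA-Camk2a libraries. Its log2 fold change was 0.36 (SE 0.27, edgeR adjusted p = 0.443). Without the control library of mouse 31 it was 0.86 and passed (adjusted p = 0.0397). It was 0.15 within batch 1 and 0.98 within batch 2, and passed in neither. In hippocampus the controls held 9.42, 5.94, 6.27 and 8.43 CPM (mice 11, 20, 31 and 37), the GA-Camk2a libraries 3.58, 5.95 and 9.31 CPM, and the log2 fold change was -0.39 (SE 0.26, edgeR adjusted p = 0.378). It was -0.050 when the 3 libraries with high Rorb were left out.

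Among the targets of ATF4, Asns, which makes asparagine and is a standard readout of amino acid shortage, did not pass in either tissue. Control cortex held 131, 127, 128, 119 and 125 CPM (mice 11, 20, 31, 37 and 38), a narrow range, and GA-Camk2a cortex 101 CPM in the lowest, 113 in the median and 124 in the highest library. Of the GA-Camk2a libraries 5 of 6 lay below every control. Asns differed by -0.16 on the log2 scale (SE 0.09, 95% interval -0.34 to 0.03, edgeR adjusted p = 0.275). Control hippocampus held 96.1, 84.2, 102 and 96.9 CPM (mice 11, 20, 31 and 37) and GA-Camk2a hippocampus 70.9, 75.3 and 101 CPM, with 4 of 6 below every control and mouse 41 the highest. The log2 fold change was -0.28 (SE 0.10, 95% interval -0.50 to -0.06, edgeR adjusted p = 0.0927), and it was -0.36 and passed without the library of GA-Camk2a mouse 41 (adjusted p = 0.0275).

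Sesn2, a stress-inducible regulator of mTORC1, was at 1.91, 1.82, 8.06, 3.04 and 2.49 CPM in control cortex (mice 11, 20, 31, 37 and 38) and at 0.583, 5.13 and 7.19 CPM in the lowest, the median and the highest GA-Camk2a cortex library. In hippocampus it was at 3.90, 3.40, 1.71 and 5.47 CPM in controls (mice 11, 20, 31 and 37) and at 3.99, 6.07 and 8.01 CPM in GA-Camk2a mice, where 4 of 6 lay above every control. The log2 fold changes, 0.22 (SE 0.39, edgeR adjusted p = 0.78) in cortex and 0.52 (SE 0.30, adjusted p = 0.305) in hippocampus, had wide intervals, up to 1.03 and 1.15. The hippocampus value was 0.01 within batch 1 and 1.15 within batch 2. Sesn2 shares 6089 bases with Gm12981 on its own strand, so its counts are uncertain. Trib3, a pseudokinase induced by ATF4 and CHOP, held 0 to 5 counts in every library of both tissues, and any difference was not detectable at this depth: without the filter its log2 fold change was 0.41 (SE 0.72) in cortex and 0.58 (SE 0.62) in hippocampus.

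Hsp90b1 encodes GRP94, the ER form of HSP90. Control cortex held 250, 233, 269, 257 and 219 CPM (mice 11, 20, 31, 37 and 38), and GA-Camk2a cortex 191 CPM in the lowest, 199 in the median and 218 in the highest library. All 6 GA-Camk2a libraries were below all 5 controls, the highest by a small margin. The log2 fold change was -0.28 (SE 0.09, 95% interval -0.45 to -0.10, edgeR adjusted p = 0.0347), so that the level fell by 17.5%. It kept its direction in all 20 alternatives, from -0.32 to -0.24, but the call was lost in 13 of them, among these 8 of the 11 fits with 1 library left out. It was kept when control mouse 38 or GA-Camk2a mouse 30 or 34 was left out. Within batch 1 it was -0.27 (adjusted p = 0.204) and within batch 2 -0.30 (adjusted p = 0.375).

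In hippocampus Hsp90b1 was at 244, 285, 260 and 274 CPM in controls (mice 11, 20, 31 and 37) and at 241, 253 and 294 CPM in the lowest, the median and the highest GA-Camk2a library. The groups overlapped, and the log2 fold change was -0.09 (SE 0.09, 95% interval -0.27 to 0.09, edgeR adjusted p = 0.578). GA-Camk2a cortex thus had the lowest group mean, 201 ± 11.7 CPM (SD, n = 6), below control cortex (245 ± 19.7, n = 5), GA-Camk2a hippocampus (258 ± 19.1, n = 6) and control hippocampus (266 ± 18.1, n = 4), and neighbours among the last 3 groups differed by less than their spread. The annotation places 1810014B01Rik on the other strand across the 3′ end of Hsp90b1, and Gm15344, which is in the count table, on its own strand over 977 bases that do not include that end, so its counts carry the same uncertainty as those of Sesn2.

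**Figure D2:**
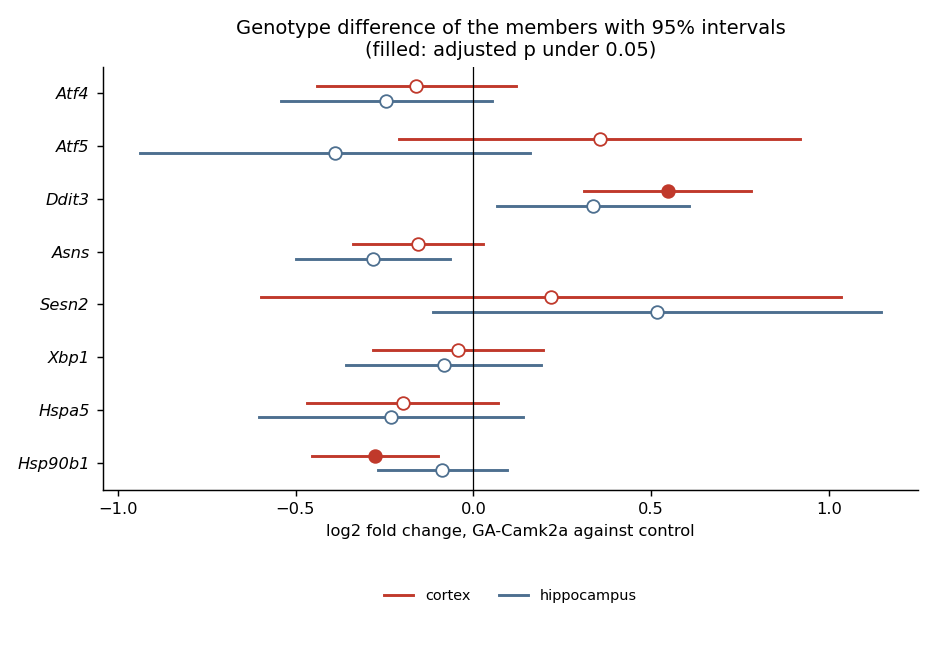
Log2 fold change of GA-Camk2a against control with its 95% interval for the 8 genes tested, in cortex (red) and hippocampus (blue); filled points passed an adjusted p of 0.05. Ddit3, at 0.55, and Hsp90b1, at -0.28, passed in cortex, and 0 passed in hippocampus.

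Hspa5 encodes BiP, the main chaperone of the ER lumen, which also holds the ER stress sensors inactive. Control cortex held 162, 203, 158, 179 and 153 CPM (mice 11, 20, 31, 37 and 38). GA-Camk2a cortex held 126 CPM in the lowest, 135 in the median and 218 in the highest library. Of the GA-Camk2a libraries 5 of 6 lay below every control, and that of mouse 34 lay above every control. Hspa5 differed by -0.20 on the log2 scale (SE 0.13, 95% interval -0.47 to 0.07, edgeR adjusted p = 0.356). Mouse 34 was also the cortex library with the high choroid plexus level. Without it, the log2 fold change of Hspa5 was -0.33 (adjusted p = 0.0329). With the choroid plexus level as a covariate it was -0.36 (adjusted p = 0.0298). It was -0.02 within batch 1, which holds the library of mouse 34, and -0.53 within batch 2.

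In hippocampus Hspa5 was at 177, 277, 166 and 257 CPM in control mice 11, 20, 31 and 37, whose choroid plexus levels were 10875, 32698, 1807 and 24690 CPM. GA-Camk2a libraries ranged from 137 CPM, in mouse 41, to 284 CPM, in mouse 34, which both had low choroid plexus levels, 1837 and 1966 CPM, and their median was 185 CPM. In the controls the order of Hspa5 was that of the choroid plexus level, whereas the highest GA-Camk2a library of Hspa5 had one of the lowest choroid plexus levels. The log2 fold change was -0.23 (SE 0.17, 95% interval -0.60 to 0.14, edgeR adjusted p = 0.45), and -0.22 with the covariate. It was 0.083 within batch 1, -0.57 within batch 2 and -0.37 without the 3 libraries with high Rorb, and passed in none of these.

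**Figure D3:**
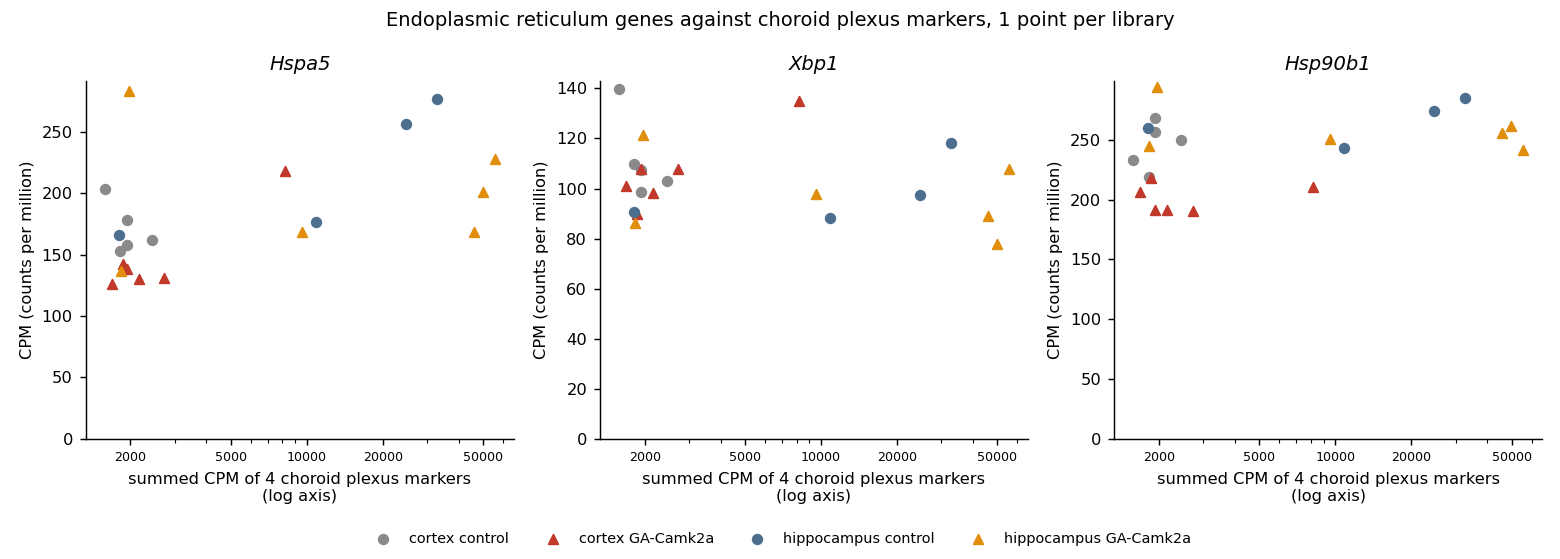
CPM of Hspa5, Xbp1 and Hsp90b1 (vertical axes) against the summed CPM of 4 choroid plexus markers (horizontal, log axis), 1 point per library, with control libraries as circles and GA-Camk2a libraries as triangles. The GA-Camk2a cortex library of mouse 34 stands apart from the other cortex libraries at 8182 CPM, with 218 CPM of Hspa5 and 135 CPM of Xbp1.

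Xbp1, the transcription factor activated by IRE1 splicing, was at 103, 140, 98.6, 107 and 110 CPM in control cortex (mice 11, 20, 31, 37 and 38) and at 89.6, 104 and 135 CPM in the lowest, the median and the highest GA-Camk2a cortex library. Control hippocampus held 88.3, 118, 90.6 and 97.6 CPM (mice 11, 20, 31 and 37) and GA-Camk2a hippocampus 77.9, 93.4 and 122 CPM. The groups overlapped in both tissues. The log2 fold changes were -0.04 (95% interval -0.28 to 0.20, edgeR adjusted p = 0.861) in cortex and -0.08 (-0.36 to 0.19, adjusted p = 0.748) in hippocampus. With the choroid plexus covariate the cortex value was -0.15 (adjusted p = 0.435).

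Of 99 other genes of these pathways, listed by role, 91 were tested in cortex, and 6 were higher and 1 was lower in GA-Camk2a mice. This is 7.69%, less than the 12.5% of all genes tested. In hippocampus 95 were tested, and 2 were higher and 1 was lower, 3.16% against 10.9%. The median log2 fold change was 0.04 in cortex and 0.08 in hippocampus, beside -0.01 and 0.02 over all genes tested.

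The amino acid genes held most of these calls. Of 14 listed genes for amino acid synthesis and transport, 12 were tested in cortex, 4 were higher, 0 were lower and the median log2 fold change was 0.32. In hippocampus 13 were tested, 2 were higher, 0 were lower and the median was 0.25. Slc3a2, the heavy chain shared by several amino acid transporters, had a mean of 99.1 ± 13.03 CPM (SD, n = 5) in control cortex and rose to 152 ± 16.9 (n = 6), with no overlap (log2 fold change 0.63, SE 0.11, edgeR adjusted p = 0.000339). The call held in all 11 fits that left out a library and was lost within batch 2 (0.58, adjusted p = 0.119). In hippocampus its log2 fold change was 0.23 (adjusted p = 0.173). Psph and Psat1, enzymes of serine synthesis, rose in cortex by 0.46 (SE 0.11, adjusted p = 0.00857) and 0.38 (SE 0.11, adjusted p = 0.0281) on the log2 scale. Psat1 was lost without control mouse 31 or 37 or GA-Camk2a mouse 23 (adjusted p up to 0.0967), with no filter and within each batch (adjusted p up to 0.561). Psph was lost in 0 of 11 fits with a library omitted, but in 5 of 9 other alternatives: DESeq2, no filter, each batch alone and thinning (adjusted p up to 0.54). Phgdh, which starts the same route, rose by 0.59 (SE 0.19, adjusted p = 0.0413), and this call was kept without control mouse 20 or 37 or GA-Camk2a mouse 16 and lost in the other 8 of 11 fits that left out a library (adjusted p up to 0.166). The Phgdh call was also lost in 6 of 9 other alternatives (DESeq2, no filter, no batch term, batch 2 alone, thinning and the choroid plexus covariate). Its log2 fold change was 0.85 within batch 1 and 0.055 (adjusted p = 0.9747) within batch 2.

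In hippocampus, Slc7a11, the light chain of the cystine-glutamate exchanger, rose from 33.97 ± 4.42 CPM (SD, n = 4) to 55.3 ± 13.7 (n = 6), or 0.66 on the log2 scale (SE 0.16, edgeR adjusted p = 0.0138). It was lost when the library of control mouse 20 or 37 was left out (adjusted p at most 0.0771), after thinning (adjusted p = 0.0658) and within batch 1 (0.60, adjusted p = 0.293) and batch 2 (0.72, adjusted p = 0.0801). Slc1a5, a neutral amino acid transporter, rose by 1.08 (SE 0.31, adjusted p = 0.0378) from a low level, 3.08 ± 0.382 to 6.87 ± 3.03 CPM, and was kept without GA-Camk2a mouse 34 or 35 and lost in the other 8 of 10 such fits (adjusted p up to 0.136). Within batches it was 0.91 (adjusted p = 0.463) and 1.27 (adjusted p = 0.161). Phgdh and Slc1a5 lie outside the naming rule and were named after their values were seen.

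The other lists held few calls. Of 12 aminoacyl-tRNA synthetases, all tested, 0 passed in cortex and 1, Wars, was lower in hippocampus (log2 fold change -0.48, SE 0.13, edgeR adjusted p = 0.0234). Wars was lost when the library of control mouse 31 or GA-Camk2a mouse 35 was left out, with adjusted p up to 0.0525. It was also lost with no batch term (adjusted p = 0.053), after thinning (-0.31, adjusted p = 0.229) and within batch 1 (-0.24, adjusted p = 0.524), and was -0.79 within batch 2. Of 10 other ATF4 and CHOP linked genes tested in each tissue, Nupr1, a small stress-induced nuclear protein, had a mean of 36.4 ± 4.89 CPM (SD, n = 5) in control cortex and rose to 64.9 ± 10.1 (n = 6), with no overlap (log2 fold change 0.85, SE 0.13, adjusted p = 8.04e-05). This was the lowest adjusted p among the 99 genes, and the call held in all 11 fits that left out a library and was lost within batch 2 (0.85, adjusted p = 0.068). In hippocampus its log2 fold change was 0.71 (SE 0.24, adjusted p = 0.0722). None of the eIF2alpha kinases, eIF2B and phosphatase subunits passed, 0 of 8 tested in cortex and 0 of 9 in hippocampus, and none of the sensors and their processing enzymes, 0 of 6 and 0 of 8.

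On the ER side, 0 of 17 chaperones and folding enzymes passed in either tissue. Their log2 fold changes ran from -0.34 to 0.25 in cortex (median 0.03) and from -0.35 to 0.36 in hippocampus (median -0.10). At an unadjusted p under 0.05 there were 1 in cortex (lower) and 5 in hippocampus (3 higher and 2 lower), where 25.9% and 24.7% of all genes lay under it, and their adjusted p was at least 0.0795. Of 15 genes of ER-associated degradation, Sel1l, the partner of the ubiquitin ligase HRD1, was lower in cortex (log2 fold change -0.38, SE 0.11, edgeR adjusted p = 0.0301) and 0 passed in hippocampus. Sel1l was kept without control mouse 11 or 38 or GA-Camk2a mouse 30 or 34, and lost in the other 7 of 11 fits that left out a library (adjusted p up to 0.127), after thinning and within each batch (adjusted p up to 0.247). Of 11 translocon and signal sequence genes, Sec61b was higher in cortex (0.38, SE 0.11, adjusted p = 0.026) and 0 passed in hippocampus. Sec61b was lost without control mouse 11, 31, 37 or 38 or GA-Camk2a mouse 34 (adjusted p up to 0.0748). It was also lost with no filter, after thinning, with the choroid plexus covariate (0.31, adjusted p = 0.0866) and within each batch, where it was 0.45 and 0.24 (adjusted p up to 0.638).

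**Figure D4:**
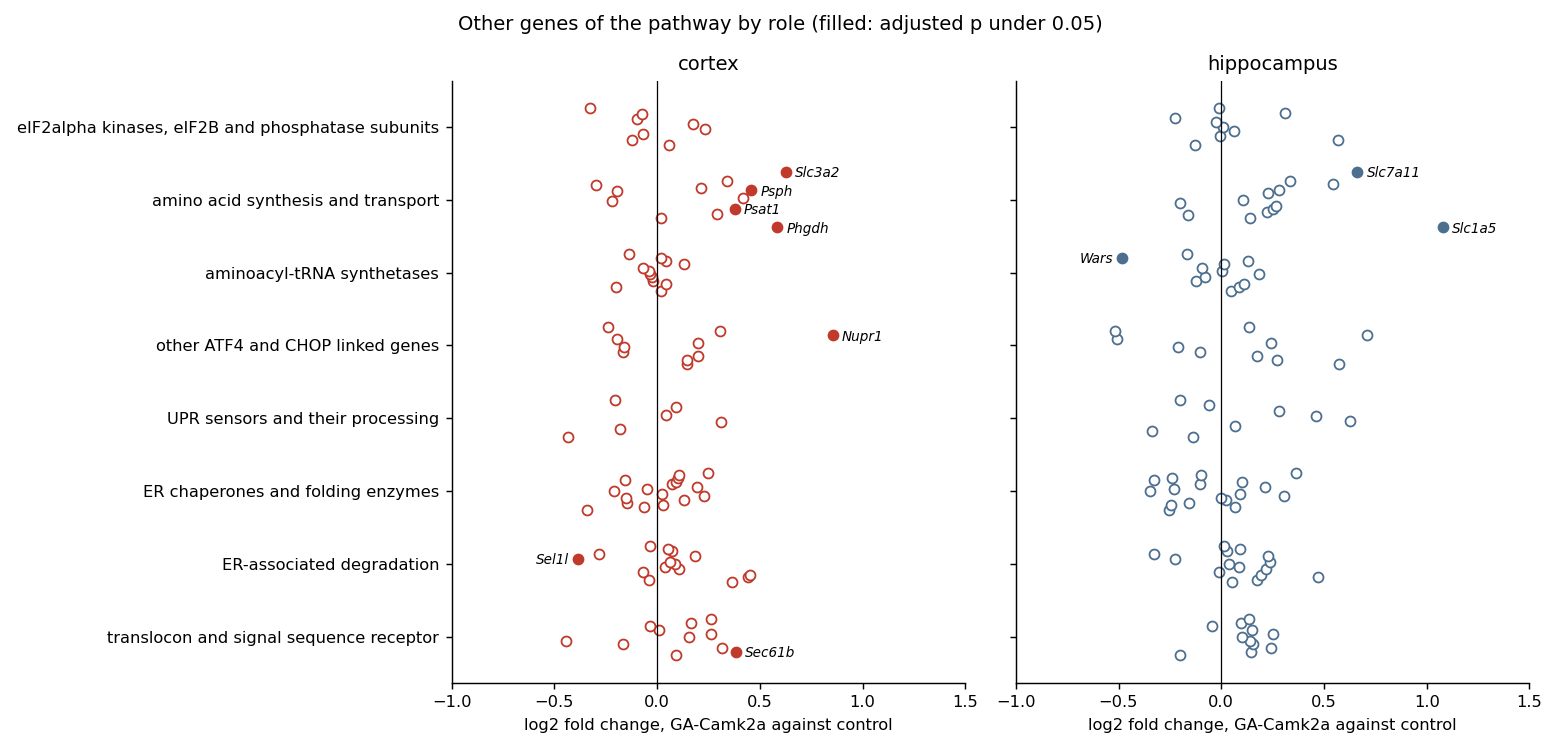
Log2 fold change of GA-Camk2a against control for each tested gene of the 8 lists, in cortex (left, 91 genes) and hippocampus (right, 95 genes), 1 point per gene; filled and named points passed an adjusted p of 0.05. In cortex 4 of the 7 filled points are amino acid genes, and the ER chaperones hold 0 filled points in both tissues.

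The difference of the genotype effects between the tissues was then tested as an interaction over all 21 libraries. Of the 8 members tested 0 passed, where 0.400% of all 14751 genes did. At an unadjusted p under 0.05 there were also 0 members, where 10.0% of all genes lay under it. DESeq2 gave 0 as well. For Ddit3 the hippocampus effect minus the cortex effect was -0.23 (95% interval -0.56 to 0.10, edgeR adjusted p = 0.671), so a smaller effect in hippocampus was not shown. After thinning it was -0.56 (adjusted p = 0.49). For Hsp90b1 it was 0.18 (-0.06 to 0.41, adjusted p = 0.636). The largest estimate among the tested members was that of Atf5, -0.77 (-1.55 to 0.01, adjusted p = 0.501). The estimates were -0.09 for Atf4, -0.14 for Asns, 0.25 for Sesn2, -0.04 for Xbp1 and 0.0041 for Hspa5, with adjusted p of at least 0.757. Without the filter Atf3 was at -1.10 (SE 0.70, adjusted p = 0.995) and Trib3 at 0.073 (SE 0.95). None of the 94 tested genes of the other lists passed.

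Tissue levels were compared between hippocampus and cortex within each genotype. In control mice 7 members were tested and 1, Asns, passed, where 16.3% of all genes did. Its log2 fold change was -0.46 in hippocampus against cortex (SE 0.10, edgeR adjusted p = 0.00299), and all 4 hippocampus libraries were below all 5 cortex libraries. Within batch 1 it was -0.45 (adjusted p = 0.0944) and within batch 2 -0.48 (adjusted p = 0.0373). At an unadjusted p under 0.05, where 30.4% of all genes lay, were also Ddit3, at -0.36 (adjusted p = 0.0732), and Hspa5, at 0.32 (adjusted p = 0.159). Hspa5 passed at 0.45 without the hippocampus library of control mouse 31 (adjusted p = 0.0212), and Ddit3 passed without that of control mouse 37 (adjusted p = 0.0457) and with voom (adjusted p = 0.0269), and was -0.20 after thinning (adjusted p = 0.513). Xbp1 (-0.23), Atf5 (0.19), Hsp90b1 (0.06) and Atf4 (-0.04) had adjusted p of at least 0.197. Without the filter Atf3 was at 0.39 (SE 0.62), Trib3 at 0.16 (SE 0.73) and Sesn2 at 0.11 (SE 0.35), and none of these passed.

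In GA-Camk2a mice 8 were tested and 5 passed, where 33.2% of all genes did. Asns (-0.58, SE 0.09, edgeR adjusted p = 0.000148) and Ddit3 (-0.56, SE 0.11, adjusted p = 0.00104) were lower in hippocampus, and Hsp90b1 was higher (0.28, SE 0.08, adjusted p = 0.00921) with no overlap of the tissues, a call that was lost with no filter on low counts (adjusted p = 0.0591). Atf5 was lower (-0.65, SE 0.24, adjusted p = 0.0417) and Hspa5 higher (0.39, SE 0.13, adjusted p = 0.0298), and these 2 calls were lost in 8 and 6 of the 12 fits with 1 library omitted. Atf5 was lost without the cortex library of mouse 23, 34, 35 or 41 or the hippocampus library of mouse 16, 23, 30 or 41 (adjusted p up to 0.142), and Hspa5 without the cortex library of mouse 23, 30 or 41 or the hippocampus library of mouse 16, 34 or 35 (adjusted p up to 0.0862). Within batch 1 alone 4 of the 5 passed, Atf5 being the exception, and within batch 2 alone 0 passed, with log2 fold changes of -0.48 for Asns, -0.40 for Ddit3, 0.21 for Hsp90b1, -0.66 for Atf5 and 0.14 for Hspa5. Atf5 was also lost with DESeq2 (adjusted p = 0.0665), no filter (adjusted p = 0.136) and a batch term for each tissue (adjusted p = 0.134), and Hspa5 with DESeq2 (adjusted p = 0.109) and no batch term (adjusted p = 0.106). Xbp1 (-0.21), Sesn2 (0.22) and Atf4 (-0.09) did not pass (adjusted p at least 0.171). Without the filter Atf3 was at -0.84 (SE 0.34, adjusted p = 0.138) and Trib3 at 0.14 (SE 0.62). All 6 GA-Camk2a mice gave both tissues, and with each mouse as a replicate block Atf5 was lost (adjusted p = 0.0632) and Xbp1 passed as lower in hippocampus, at -0.22 (adjusted p = 0.0348). The choroid plexus level reached 55499 CPM in hippocampus and 8182 CPM in cortex libraries, and its part in these tissue differences was not tested. Because the interaction was not past the threshold for any member, the tissue differences of the genotypes were not shown to differ.

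**Figure D5:**
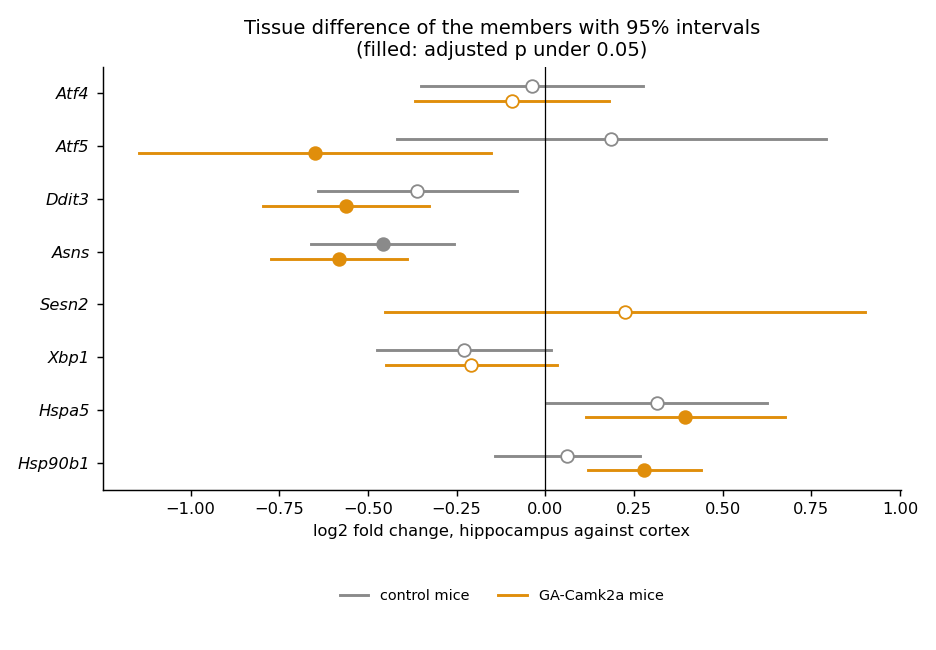
Log2 fold change of hippocampus against cortex with its 95% interval in control mice (grey, 7 genes) and GA-Camk2a mice (orange, 8 genes); filled points passed an adjusted p of 0.05. Asns passed in both genotypes, at -0.46 and -0.58; Ddit3 and Atf5 (lower in hippocampus) and Hspa5 and Hsp90b1 (higher) passed in GA-Camk2a mice.

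As a description of which genes varied alike, log2 CPM was compared over the 21 libraries after the group means were subtracted. The libraries share mice and batches, so these values carry no test. Hspa5 was most like Xbp1 among the members (r = 0.78, and 0.84 when the batch in each tissue was also removed) and next like Hsp90b1 (0.61 and 0.63). Atf4 and Atf5 had r = 0.50 (0.64 with the batch removed). Ddit3 had r = 0.39 with Atf4 (0.45 with the batch removed), 0.38 with Xbp1 (0.47), 0.38 with Asns (0.59), 0.25 with Hsp90b1 (0.36), 0.05 with Hspa5 (0.45), -0.13 with Atf5 (0.25) and -0.20 with Sesn2 (-0.07). Among all genes with an average log2 CPM of at least 3, the nearest to Ddit3 were Sox8 (0.85), Ly6c1 (0.82) and Lrp4 (0.82), and these fell to 0.63, 0.57 and 0.50 with the batch removed. The nearest to Hsp90b1 were BC030500 (0.79), Gnaz (0.67) and Gdap1 (0.67), at 0.84, 0.74 and 0.69 with the batch removed.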

How the data were processed

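The deposited values are counts per gene, which the authors made with zUMIs from prime-seq libraries of 20 ng total RNA on the mouse genome GRCm39 with the GFP sequence added. The submitters' processing notes name STAR, cutadapt 1.12, FastQC 0.11.8 and DESeq2 1.44. Whether the counts are molecules or reads, and whether strand and introns were used, is not given in the sources used here. Symbols were found for 43308 of the 64361 genes, holding 96.1% of the counts, and the GFP row was left out of all tests.

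CPM is the count scaled to a library total of 1000000. Differences were tested with edgeR 4.0.16 (R 4.3.3; TMM normalisation, filterByExpr with a minimum count of 10, quasi-likelihood test, the batch given in the labels as a covariate), with Benjamini-Hochberg adjustment over all genes tested and a threshold of 0.05. Replicates are separate mice. Alternatives used limma 3.58.1 (voom with quality weights), DESeq2 1.42.0, upper quartile scaling, no filter, no batch term, single batches, thinned counts (a random draw), each library left out and a replicate block. The choroid plexus covariate, the batch term for each tissue and the Rorb limit were added after seeing the data.

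The same mouse gave both tissues in 10 pairs, so mouse numbers pair the tissues. Residuals of a pair correlated at -0.05 to 0.15, and 1 of 10 exceeded 0.1. All 10 genes are named in every comparison, and of the wider lists the genes that passed for genotype, up to 4 per list. The members and lists were chosen with earlier results of these data known. Promoter coordinates are from GRCm38.p6 and were not joined with GRCm39. Gene overlaps come from another annotation release than the counts. No fold changes or p-values of the authors were used.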

Additional observations from a re-analysis of the deposited data

Results flagged for a closer look

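Of 40 sets of CPM values, 1 gene in 1 group each, 6 held a library far from the rest of its group by Dixon's test, which by chance marks about 1 set in 20. All 6 were cortex libraries. Control mouse 31 stood high for Atf5 (13.6 CPM) and for Sesn2 (8.06 CPM), and control mouse 20 stood high for Xbp1 (140 CPM). Control mouse 37 stood low for Atf3, with 0 CPM. GA-Camk2a mouse 34 stood high for Hspa5 (218 CPM), and it also had the highest choroid plexus level of the cortex libraries, 8182 CPM. GA-Camk2a mouse 41 stood low for Ddit3 (41.3 CPM), and its Rorb level was 612 CPM, against 133 to 214 CPM in the other cortex libraries. The part of these marker levels was not tested for Ddit3 in mouse 41.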

How the results depend on the processing

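In cortex, 1 member passed under upper quartile scaling, in batch 1 alone and after thinning, 0 in batch 2 alone, and 1 to 3 with a library left out. In hippocampus 0 to 1 passed with a library left out. For hippocampus against cortex in controls, 0 passed in batch 1 alone, 2 with voom and 1 to 2 with a library left out. In GA-Camk2a mice 3 passed with DESeq2, 3 without the filter, 0 in batch 2 alone and 3 to 5 with a library left out. Some values changed sign without passing. In batch 1 alone these were Xbp1 in cortex (0.055) and hippocampus (0.092), Hspa5 in hippocampus (0.083), the interaction of Xbp1 (0.065) and Sesn2 (-0.15), Atf4 between control tissues (0.073) and Sesn2 between GA-Camk2a tissues (-0.076). In batch 2 alone they were the interactions of Atf4 (0.070), Asns (0.0073) and Hspa5 (-0.025). Thinning gave 0.027 for Xbp1 in cortex and 0.083 for Atf4 between control tissues. The interaction of Hspa5 was -0.000102 with upper quartile scaling, -0.037 without the filter, -0.017 with voom and -0.049 with a batch term for each tissue, which also gave 0.076 for Atf4 between control tissues and -0.070 for Sesn2 between GA-Camk2a tissues. With a library left out, Xbp1 ran from -0.12 to 0.040 in cortex and from -0.17 to 0.047 in hippocampus, and Hspa5 in hippocampus from -0.41 to 0.014. The interactions ran from -0.17 to 0.041 (Atf4), -0.10 to 0.22 (Hspa5), -0.14 to 0.084 (Xbp1) and -0.32 to 0.49 (Sesn2). Between control tissues Atf4 ran from -0.21 to 0.070 and Atf5 from -0.041 to 0.60, and between GA-Camk2a tissues Sesn2 ran from -0.11 to 0.36. The replicate block by mouse turned the interaction of Atf4 to 0.031, and beside Atf5 and Xbp1 between GA-Camk2a tissues it changed no other call. The cause of these changes was not tested, and single batches hold fewer libraries. Over all genes, the number that passed ranged over the alternatives from 230 to 1625 in cortex (1635 as reported), 115 to 1907 in hippocampus (1628), 0 to 159 for the interaction (59), 1241 to 3416 between control tissues (2351) and 1353 to 4587 between GA-Camk2a tissues (4350). Atf3, Trib3, Sesn2 and Atf5 rest on few counts per library (at most 37), and thinning also moved Ddit3 in hippocampus from 0.34 to 0.0076.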
